A study of Mus musculus with 6 samples.

Results

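Chemokine receptors and CXC ligands were examined in the frontal cortex of GFAP-IL6 mice. The 6 genes were the receptors Ccr1, Ccr2 and Cxcr4 and the ligands Cxcl12, Cxcl14 and Cxcl16, chosen by gene symbol from the 33000 genes of the count table, and each symbol matched a single row. TruSeq mRNA libraries, in which fragments of polyadenylated RNA from the whole transcript are read, were made from 3 mice homozygous for GFAP-IL6 and from 3 wild-type (WT) mice. All mice were 3 months old and of the C57BL/6 strain, and each library came from 1 mouse. The GFAP-IL6 mouse carries a transgene in which the promoter of Gfap, an astrocyte filament gene, drives the inflammatory cytokine IL6, so that astrocytes are the intended source of the cytokine. Sex and litter were not used here.

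Chemokines are small secreted or membrane-bound proteins that attract cells along a gradient, and their receptors are G protein-coupled receptors of the cell surface. CC ligands carry adjacent cysteines near their start, whereas in CXC ligands a further residue lies between them. Cxcl12 and Cxcl14 are made in the healthy brain, and Cxcl12 acts through Cxcr4 in cell migration and in the retention of cells. Cxcl16 is made as a transmembrane protein. Ccr1 and Ccr2 are receptors of myeloid cells, and Ccr2 on monocytes binds ligands such as Ccl2 and Ccl12. Since whole tissue was sequenced, a change in the number of cells of a type and a change in RNA per cell cannot be told apart for any gene below.

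The motif that gives the CXC ligands their name is shown because it is what Cxcl12, Cxcl14 and Cxcl16 share. Each stretch was taken from the coding sequence of the longest coding transcript in GENCODE M21 (build GRCm38, equivalent to mm10) and is written 5′ to 3′ with the codons of the paired cysteines in capitals.
Cxcl12: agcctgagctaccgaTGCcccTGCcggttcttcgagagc
Cxcl14: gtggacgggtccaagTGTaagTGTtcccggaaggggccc
Cxcl16: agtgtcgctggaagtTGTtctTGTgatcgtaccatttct
The Cxcl12 stretch lies at chr6:117171493-117171531 on the plus strand and the Cxcl16 stretch at chr11:70459112-70459150 on the minus strand, each within a coding exon. The Cxcl14 stretch spans an intron between 56295900 and 56296116 on the minus strand of chromosome 13. The coding sequences measured 357 bases for Cxcl12, 297 for Cxcl14 and 738 for Cxcl16.

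Total counts ranged from 7559524 to 16877001 per library, and the 3 GFAP-IL6 libraries were the shallowest. Il6, the cytokine of the transgene, was counted 0, 2 and 0 times in WT replicates 1, 2 and 3 and 12, 10 and 24 times in GFAP-IL6 replicates 1, 2 and 3. Reads of the transgene and of the mouse gene are not told apart in these counts. Of 8 cortical neuron markers all 8 were detected, with a summed level of 7058 to 7458 CPM (counts scaled to library depth by the TMM method) in WT and 6079 to 7007 CPM in GFAP-IL6. Snap25, Gad1 and Gad2 of this list were lower in each GFAP-IL6 library than in each WT library, although edgeR called none of them. Some libraries stood apart in tissue markers. The 6 choroid plexus markers summed to 607.7 CPM in the highest WT library, replicate 3, and to 3.22 CPM in the lowest, against 3.68 to 59.6 CPM in GFAP-IL6. The 9 striatal markers summed to 499 CPM in the highest WT library, replicate 2, and to 259 CPM in the lowest, against 280 to 331 CPM in GFAP-IL6. The difference of each of the 6 genes is therefore also given without WT replicates 2 and 3 in turn.

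The members spanned a wide range of levels. On the TPM scale, in which counts are divided by gene length so that genes can be compared, the mean over the 6 libraries was 128 ± 4.82 TPM for Cxcl14, 22.3 ± 3.00 for Cxcl12, 2.89 ± 1.95 for Cxcl16, 0.804 ± 0.354 for Cxcr4, 0.613 ± 0.319 for Ccr1 and 0.352 ± 0.222 for Ccr2 (SD, n = 6). The range of Cxcl14 lay above that of Cxcl12, and that of Cxcl12 above that of Cxcl16. Cxcl16 was above Cxcr4 in 6 of 6 libraries, although their ranges over all libraries overlapped. In WT replicate 1 they were nearly level, at 1.106 TPM for Cxcl16 and 1.102 TPM for Cxcr4. Cxcr4 and Ccr1 were not ordered beyond their spread, as Cxcr4 was higher in 3 of 3 WT libraries but in 1 of 3 GFAP-IL6 libraries. Ccr1 was above Ccr2 in 6 of 6 libraries, with overlapping ranges. By their means the ligands thus stood above the receptors, and Cxcl14 was above 90.9% of all genes tested.

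**Figure D1:**
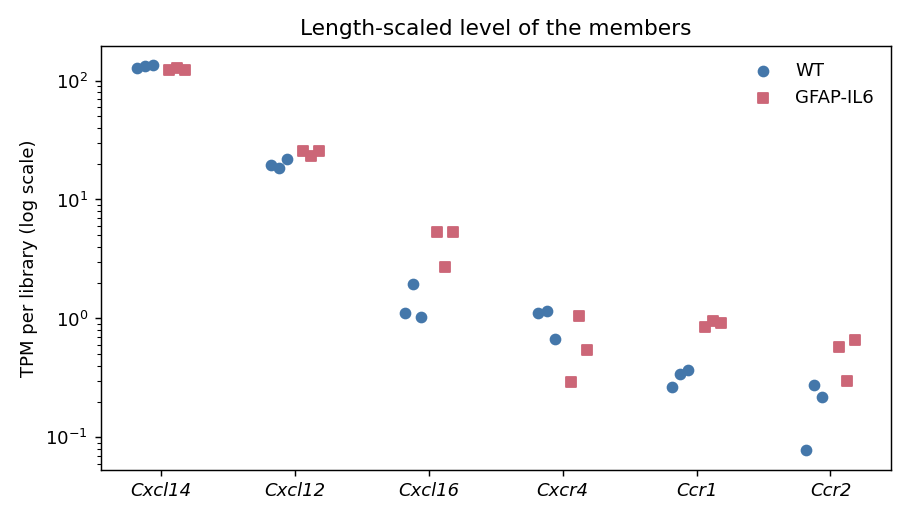
Level of each gene in TPM (log axis) in the 3 WT (circles) and 3 GFAP-IL6 (squares) libraries, ordered by the mean. Cxcl14 lies between 122 and 135 TPM in every library, and no library of Ccr2 exceeds 0.659 TPM.

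Differential expression was tested by edgeR over all genes that passed the low-count filter, 15341 genes. Cxcl12, Cxcl14 and Cxcl16 passed the filter, while Ccr1, Ccr2 and Cxcr4 did not and are described by raw counts. A gene was called at a Benjamini-Hochberg adjusted p under 0.05. Of the members tested, Cxcl16 was called as higher in GFAP-IL6, as were 2.65% of all genes tested, and no member was called as lower, as were 0.209% of all genes. Cxcl16 also passed the stricter threshold of the study, which adds an absolute log2 fold change over 1 and was met as higher by 1.36% of genes. The GFAP-IL6 libraries lay above all WT libraries in Ccr1, Ccr2, Cxcl12 and Cxcl16 and below them in Cxcl14, and the groups overlapped in Cxcr4. Of all genes tested, 13.8% were separated in this way as higher and 12.7% as lower. Among the 1096 genes below the filter with 30 to 60 counts over all libraries, a window set after the counts of these receptors were seen, 8.30% were separated as higher and 5.38% as lower. The shares were 8.47% and 4.55% among the 1782 genes with 10 to 29 counts.

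**Figure D2:**
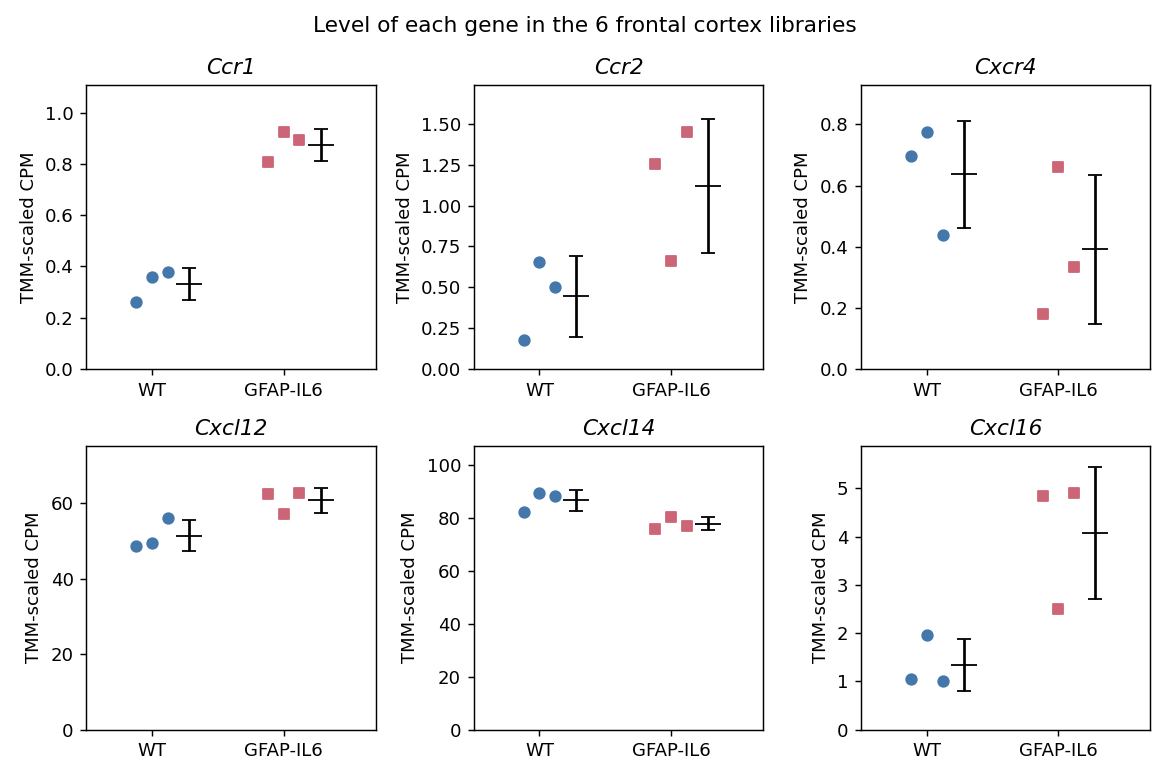
TMM-scaled CPM of each gene in the 3 WT (circles) and 3 GFAP-IL6 (squares) libraries, with the mean and SD of each group beside the points; axes start at 0. The groups are apart for Ccr1 and Cxcl16, nearly touch for Ccr2, with 0.655 CPM in the highest WT and 0.659 CPM in the lowest GFAP-IL6 library, and overlap for Cxcr4.

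Cxcl16 (ENSMUSG00000018920.9, chromosome 11, 70453983 to 70459984, minus strand) encodes a membrane-bound chemokine whose ectodomain is shed by the proteases Adam10 and Adam17. It was counted 12, 33 and 16 times in WT replicates 1, 2 and 3 and 54, 19 and 44 times in GFAP-IL6 replicates 1, 2 and 3. Scaled to depth, these were 1.04, 1.97 and 1.003 CPM in WT and 4.83, 2.51 and 4.90 CPM in GFAP-IL6. The groups did not overlap, with replicate 2 of each group closest to the other group. Cxcl16 rose from 1.34 ± 0.544 to 4.08 ± 1.37 CPM (SD, n = 3 each). As a log2 fold change this was 1.598 ± 0.33 (SE), with a 95% interval from 0.87 to 2.32, which is a fold of 3.03, and edgeR placed the adjusted p at 0.0205. In DESeq2 it was 0.00463. When WT replicate 2 was left out, the log2 fold change was 2.02, with an adjusted p of 0.00226. The call was lost without WT replicate 3 (log2 fold change 1.40, adjusted p of 0.066), GFAP-IL6 replicate 1 (1.46, 0.112) or GFAP-IL6 replicate 3 (1.47, 0.154).

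The start of Cxcl16 is shared with another gene. In GENCODE M21 the first 552 bases of its 2699-base transcript, or 20.4%, are exon of Zmynd15 on the opposite strand (chr11:70459433-70459984), and 15 of these bases are coding in Cxcl16. Zmynd15, a zinc finger gene known from the testis, was counted 4, 7 and 7 times in the WT libraries and 17, 12 and 16 times in the GFAP-IL6 libraries. Zmynd15 rose by a log2 fold change of 1.97 ± 0.34 (SE; edgeR adjusted p = 0.00662). The strand setting of the counting step is not given in the sources used here. If reads were counted without regard to strand, reads from the shared bases cannot be assigned to either gene, and how far the values of Cxcl16 and Zmynd15 depend on each other was not tested.

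The receptor of Cxcl16 and its proteases were looked up from the lists. Cxcr6, the receptor of Cxcl16, was counted 0, 2 and 3 times in the WT libraries and 8, 1 and 5 times in the GFAP-IL6 libraries, which overlap once scaled to depth, and it did not pass the filter. Adam10 measured 95.4 ± 7.75 CPM in WT and 92.4 ± 6.20 CPM in GFAP-IL6 (SD, n = 3 each; adjusted p = 0.795). Adam17 measured 20.6 ± 3.55 and 25.2 ± 1.73 CPM (SD, n = 3 each), with a log2 fold change of 0.28 ± 0.13 (SE) and an adjusted p of 0.241. Markers of microglia moved with Cxcl16. Of 7 markers 3 were called as higher and 0 as lower, and their summed level was 229 to 304 CPM in WT and 372 to 415 CPM in GFAP-IL6. Their part in the value of Cxcl16 was not tested.

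Cxcl12 (ENSMUSG00000061353.9, chromosome 6, 117168535 to 117181367, plus strand) is the ligand of Cxcr4 and of the scavenging receptor Ackr3. It was counted 559, 828 and 894 times in the WT libraries and 698, 432 and 562 times in the GFAP-IL6 libraries. Scaled to depth, these were 48.6, 49.3 and 56.1 CPM in WT and 62.5, 56.97 and 62.6 CPM in GFAP-IL6. The groups did not overlap, but WT replicate 3 and GFAP-IL6 replicate 2 were within a CPM of each other. The means were 51.3 ± 4.10 and 60.7 ± 3.23 CPM (SD, n = 3 each). The log2 fold change was 0.24 ± 0.09 (SE) with a 95% interval from 0.053 to 0.43, and the unadjusted p of 0.0162 became 0.156 after adjustment, so that Cxcl12 was not called by edgeR. The log2 fold change was 0.21 without WT replicate 2 and 0.31 without WT replicate 3.

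Vascular and meningeal cells are known sources of Cxcl12. Of 7 endothelial markers 4 were called as higher, and their summed level was 190 to 216 CPM in WT and 262 to 311 CPM in GFAP-IL6. Of 6 pericyte and smooth muscle markers 1 was called as higher, with 147 to 172 CPM in WT and 194.7 to 231 CPM in GFAP-IL6. Of 6 markers of meningeal fibroblasts 0 were called, with 26.6 to 54.6 CPM in WT and 31.1 to 62.1 CPM in GFAP-IL6. The part of these cells in the level of Cxcl12 was not tested.

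Cxcl14 (ENSMUSG00000021508.10, chromosome 13, 56288643 to 56296551, minus strand) is a chemokine of healthy tissues that subsets of cortical interneurons express. It was counted 943, 1499 and 1405 times in the WT libraries and 845, 609 and 691 times in the GFAP-IL6 libraries. Scaled to depth, these were 82.04, 89.3 and 88.1 CPM in WT and 75.6, 80.3 and 77.02 CPM in GFAP-IL6. The groups did not overlap, by a small margin, and GFAP-IL6 was the lower. The means were 86.5 ± 3.89 and 77.7 ± 2.401 CPM (SD, n = 3 each). The log2 fold change was -0.16 ± 0.08 (SE) with a 95% interval from -0.33 to 0.015 and an adjusted p of 0.281 by edgeR, so that Cxcl14 was not called. The log2 fold change was -0.14 without WT replicate 2 and -0.14 without WT replicate 3. Of 9 cortical interneuron markers 0 were called and 7 had a log2 fold change below 0, with a summed level of 935 to 1024 CPM in WT and 836 to 910 CPM in GFAP-IL6. The summed level of the 8 cortical neuron markers given above was likewise lower in GFAP-IL6. Snap25 held the largest part of that sum, with means of 3234 CPM in WT and 2813 CPM in GFAP-IL6. Of the 8 markers, 3 had a log2 fold change above 0, so the sum does not stand for the whole list. The part of interneurons and other neurons in the level of Cxcl14 was not tested.

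Since Cxcl12 and Cxcl14 lay apart in opposite directions, their ratio per length was formed within each library after these values were seen, so its direction was given beforehand and no test was made. The level of Cxcl14 was 6.63, 7.11 and 6.17 times that of Cxcl12 in WT and 4.75, 5.54 and 4.83 times in GFAP-IL6. The means were 6.64 ± 0.469 and 5.04 ± 0.432 (SD, n = 3 each). The level of Cxcl12 was 17.6, 9.46 and 21.1 times that of Cxcl16 in WT and 4.87, 8.57 and 4.81 times in GFAP-IL6. Cxcl14 was thus the most abundant and Cxcl16 the least abundant of these ligands in every library of both groups.

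**Figure D3:**
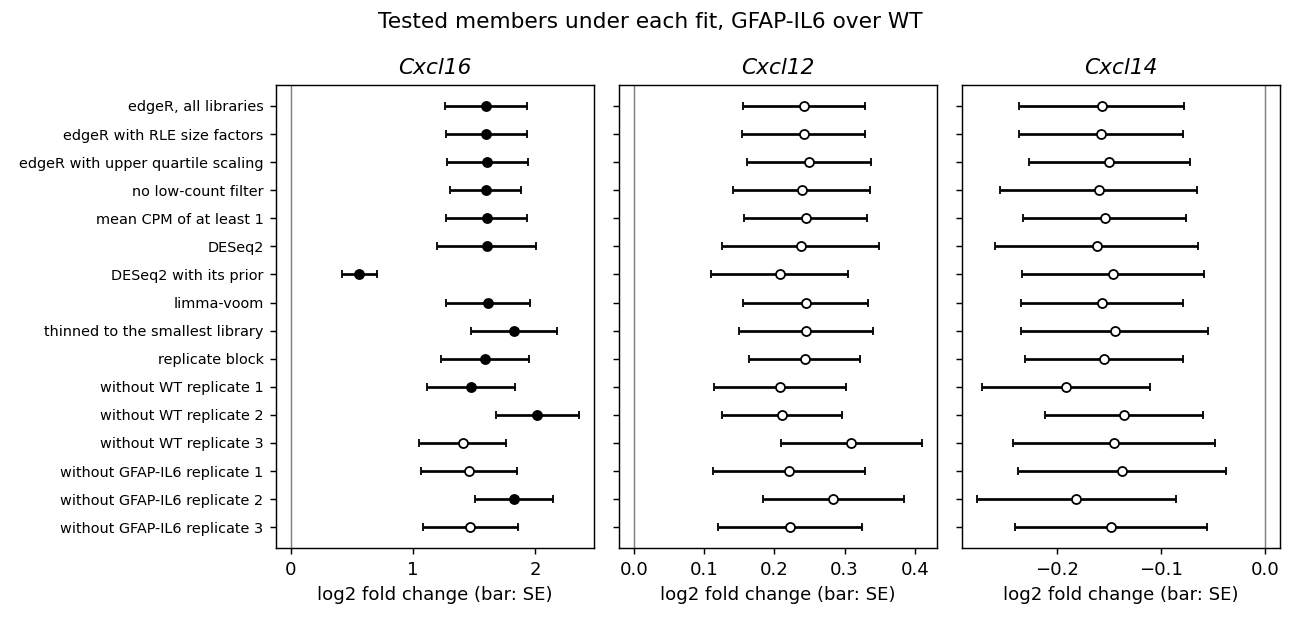
Log2 fold change of Cxcl16, Cxcl12 and Cxcl14 (GFAP-IL6 over WT, bars are SE) under each fit, with the horizontal axis scaled separately for each gene; filled points have an adjusted p under 0.05. Cxcl16 stays above 0 in every fit and is filled in all but those without WT replicate 3, GFAP-IL6 replicate 1 or GFAP-IL6 replicate 3, whereas Cxcl12 and Cxcl14 are open in every fit.

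Ccr1 (ENSMUSG00000025804.4, chromosome 9, 123962124 to 123968692, minus strand) is a receptor of myeloid cells for several CC ligands, among them Ccl3 and Ccl5. It was counted 3, 6 and 6 times in the WT libraries and 9, 7 and 8 times in the GFAP-IL6 libraries. Although the GFAP-IL6 libraries were shallower, each held more counts of Ccr1 than each WT library. Scaled to depth, these were 0.261, 0.357 and 0.376 CPM in WT and 0.806, 0.923 and 0.892 CPM in GFAP-IL6. The means were 0.332 ± 0.062 and 0.874 ± 0.061 CPM (SD, n = 3 each), and the exact permutation test (two-sided) gave p = 0.1, the smallest that 3 against 3 libraries allow. Over summed counts, 24 in GFAP-IL6 against 15 in WT, the ratio was 2.55 with an exact 95% interval from 1.29 to 5.23. This interval covers counting error only and leaves out the spread between mice. With every gene kept, edgeR estimated a log2 fold change of 1.33 ± 0.54 (SE), an unadjusted p of 0.0168 and an adjusted p of 0.158. In that fit 3.54% of genes were called as higher and 1.56% as lower, and Ccr1 was not called. The log2 ratio of the group means was 1.40, or 1.46 without WT replicate 2 and 1.498 without WT replicate 3.

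Ccr2 (ENSMUSG00000049103.11, chromosome 9, 124101950 to 124113557, plus strand) directs monocytes out of the bone marrow and into inflamed tissue. It was counted 2, 11 and 8 times in the WT libraries and 14, 5 and 13 times in the GFAP-IL6 libraries. Scaled to depth, these were 0.174, 0.655 and 0.502 CPM in WT and 1.253, 0.659 and 1.45 CPM in GFAP-IL6. The groups were separated by less than 1 count, since GFAP-IL6 replicate 2 was at the level of WT replicate 2. The means were 0.444 ± 0.246 and 1.12 ± 0.411 CPM (SD, n = 3 each), and p from the exact permutation test was 0.1. The ratio of summed counts, 32 against 21, was 2.43 with an exact 95% interval from 1.36 to 4.44 for counting error. With every gene kept, edgeR estimated a log2 fold change of 1.27 ± 0.49 (SE), an unadjusted p of 0.0114 and an adjusted p of 0.128. The log2 ratio of the group means was 1.34, and it ranged from 0.95 without WT replicate 1 to 1.73 without WT replicate 2, with 1.43 without WT replicate 3.

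Most markers of blood leukocytes had few counts, but F13a1 and Cd4 passed the filter and lay above Ccr2 in most libraries. Of 5 monocyte markers, Ly6c2, Plac8 and Chil3 never exceeded 3 counts, and the list summed to 1.38 to 3.28 CPM in WT and 2.42 to 4.12 CPM in GFAP-IL6, most of it from F13a1, which border macrophages also express and which had 18 to 54 counts a library (adjusted p = 0.450). The fullest of 7 neutrophil markers held 4 counts, and the list reached at most 0.715 CPM. The 8 markers of T and NK cells summed to at most 2.74 CPM, of which up to 2.62 CPM came from Cd4 (4 to 44 counts, adjusted p = 0.562), with Cd3d at 0 in every library, although Cd3e, Cd8a and Nkg7 were separated as higher at no more than 3 counts a library. The 4 B cell markers summed to at most 1.003 CPM. Of 5 border macrophage markers 0 were called, with sums of 6.46 to 9.77 CPM in WT and 7.16 to 12.6 CPM in GFAP-IL6. Of 5 dendritic cell markers, Itgax alone was called as higher, and microglia can express this integrin as well. The 6 astrocyte markers held no call. The part of these cells in the level of Ccr2 was not tested.

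Ccr2 and Ccr1 lie in a cluster of receptor genes on chromosome 9, 133257 bases apart. Reads that occur in more than 1 gene have no unique origin, so the longest coding transcript of each member was searched in windows of 75 bases. Of the Ccr2 windows 1.38% recurred in another gene. The paper describes counting of uniquely aligned reads, and under that rule reads from these windows would be left out of the Ccr2 counts. No window recurred for Ccr1, Cxcr4, Cxcl12 or Cxcl14, and 18.2% did for Cxcl16, all in Zmynd15. The search covered both strands, and the Cxcl16 windows lie in the overlap with Zmynd15 described above. They occupy the same place in the genome, unlike the Ccr2 windows, so the question there is the strand and not the position.

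Cxcr4 (ENSMUSG00000045382.6, chromosome 1, 128588199 to 128592293, minus strand) is the receptor through which Cxcl12 guides migrating neurons and holds blood stem cells in the marrow. It was counted 8, 13 and 7 times in the WT libraries and 2, 5 and 3 times in the GFAP-IL6 libraries. Scaled to depth, these were 0.696, 0.774 and 0.439 CPM in WT and 0.179, 0.659 and 0.334 CPM in GFAP-IL6. The groups overlapped, since GFAP-IL6 replicate 2 was above WT replicate 3. The means were 0.636 ± 0.176 and 0.391 ± 0.245 CPM (SD, n = 3 each), and p from the exact permutation test was 0.2. The ratio of summed counts, 10 against 28, was 0.57 with an exact 95% interval from 0.247 to 1.21. A difference was not detected with these counts and 3 libraries per group. The log2 ratio of the group means was -0.70, with -0.54 without WT replicate 2 and -0.91 without WT replicate 3, and it moved from -0.36 without GFAP-IL6 replicate 1 to -1.31 without GFAP-IL6 replicate 2. Ackr3, which also binds Cxcl12, measured 7.76 ± 0.848 CPM in WT and 8.72 ± 1.37 CPM in GFAP-IL6 (SD, n = 3 each). It had a log2 fold change of 0.16, a 95% interval from -0.19 to 0.52 and an adjusted p of 0.601.

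The remaining genes of the chemokine system were grouped by role. Of 15 other typical receptors 8 never exceeded 3 counts. Cx3cr1, the fractalkine receptor of microglia and the most abundant of this list, rose from 56.9 ± 4.57 to 88.1 ± 9.34 CPM (SD, n = 3 each), with a log2 fold change of 0.63 ± 0.10 (SE) and an adjusted p of 0.00255. Its ligand Cx3cl1, the most abundant of 20 CC, XC and CX3C ligands, measured 718 ± 62.6 and 750.2 ± 39.9 CPM (SD, n = 3 each), with an adjusted p of 0.702. Of 7 ligands tested in that list, Ccl12 alone was called. Ccl12, a ligand of Ccr2, was counted 3, 5 and 5 times in the WT libraries and 106, 58 and 77 times in the GFAP-IL6 libraries. It rose by a log2 fold change of 4.83 ± 0.27 (SE; adjusted p = 1.39e-06). Of 12 other CXC ligands 11 were in the table and 0 passed the filter, and the most abundant by TPM, the platelet factor Pf4, had 1 to 12 counts. Cxcl5, a neutrophil attractant, had more counts, 2 to 16 a library. Of 5 atypical receptors, which bind chemokines without signalling through G proteins, 4 were tested and 0 were called. Ackr1, the most abundant of them, measured 33.8 ± 2.72 and 36.4 ± 0.867 CPM (SD, n = 3 each), with an adjusted p of 0.533.

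Of 5 genes for ligand processing and alternative partners, Cd74 alone was called, as higher. Cd74 is the invariant chain of MHC class II and also a receptor for Mif, and it rose from 2.91 ± 1.28 to 7.45 ± 0.939 CPM (SD, n = 3 each), with a log2 fold change of 1.35 ± 0.28 (SE) and an adjusted p of 0.0202. The call was lost without any of the 3 GFAP-IL6 libraries, with adjusted p values of 0.0503, 0.0695 and 0.154 for replicates 1, 2 and 3. Mif, which can act through Cxcr4 and was the most abundant of this list by TPM but not by CPM, measured 55.2 ± 3.36 and 49.9 ± 1.98 CPM (SD, n = 3 each), with an adjusted p of 0.340. Of 21 genes that act downstream of chemokine receptors 20 were tested, 2 were called as higher and 0 as lower, and the median log2 fold change was 0.14 against -0.0038 over all genes tested. The called genes were Rac2, a small GTPase of blood cells (log2 fold change 1.40 ± 0.25 SE, adjusted p of 0.00813, or 0.075 without GFAP-IL6 replicate 3), and Dock2, an exchange factor for Rac proteins in leukocytes and microglia (1.12 ± 0.15 SE, 0.000897). The receptor kinase Adrbk1, the most abundant of this list by TPM but not by CPM, measured 259 ± 18.8 and 263 ± 3.49 CPM (SD, n = 3 each), with an adjusted p of 0.876.

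**Figure D4:**
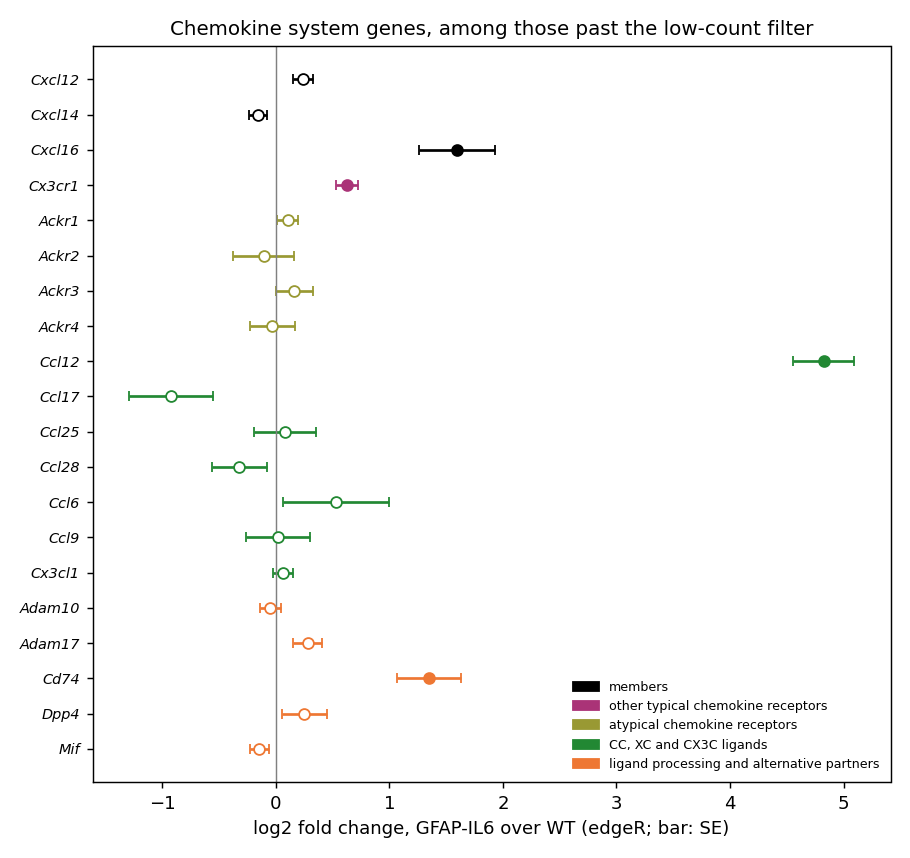
Log2 fold change (GFAP-IL6 over WT, edgeR, bars are SE) of chemokine ligands, receptors and partners among the genes that passed the low-count filter, coloured by list; filled points have an adjusted p under 0.05. Ccl12 lies farthest from 0 at 4.83, followed by Cxcl16 at 1.598 and Cd74 at 1.35, and the atypical receptors lie near 0.

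The genes whose log2 CPM followed the tested members most closely over the 6 libraries were ranked by Pearson's r among 15032 genes. For Cxcl16 these were Cyr61 (r = 0.996), Trim21 (0.995) and Dcun1d3 (0.994). Smad5 (0.997), Zdbf2 (0.995) and Gm16192 (0.994) were closest to Cxcl12, and Rtfdc1 (0.998), 0610007P14Rik (0.993) and Enho (0.993) to Cxcl14. None of these 9 genes was called by edgeR. With 6 libraries and this many genes, high coefficients are found for any pattern. All genes also share the differences in depth and genotype between the libraries, so the coefficients are a description.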

How the data were processed

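TruSeq mRNA libraries from frontal cortex were analysed, 3 from GFAP-IL6 and 3 from WT mice, grouped by sample title. The deposited values are raw read counts per gene and library. The authors aligned reads to mm10 with STAR 2.4 and assigned them to GENCODE genes with featureCounts. Levels are CPM scaled by TMM, with TPM from the gene lengths of the table. Genes were tested by the quasi-likelihood method of edgeR 4.0.16 (R 4.3.3), using group as the only term, the filterByExpr filter and Benjamini-Hochberg adjustment over 15341 genes. Single values were compared by exact two-sided permutation tests. DESeq2 1.42.0 (the tool of the authors), limma-voom (limma 3.58.1), other scalings and filters, thinning to the smallest library, omission of each library and a replicate block were run as alternatives. The fits were tested on simulated counts. Intervals of summed counts are exact binomial and cover counting error only. No libraries were the same within sampling noise (chi-square per degree of freedom 2.23 to 20.1 over 15 pairs). The edgeR p-values rest on the spread between these mice, with the variance of each gene moderated by that of the other genes in the fit. They do not measure the spread of a single gene alone, least of all for genes with few counts. The members and gene lists were chosen with earlier results of these data known. All members were named. Of each other chemokine list, the called genes, the most abundant gene by TPM and those that bear on a member are given. Some listed genes are not reported here. Positions came from GENCODE M21 on GRCm38.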

Additional observations from a re-analysis of the deposited data

How the results depend on the processing

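The direction of all 6 genes held in every alternative that gave a value. Cxcl12 and Cxcl14 were uncalled in 15 of 15 alternatives, with adjusted p from 0.0987 to 0.412 and from 0.149 to 0.552. Cxcl16 was called in 12 of 15, with log2 fold changes from 1.40 to 2.02 over the fits that left out a library and 0.56 with the prior of DESeq2, which shrinks values by construction; its adjusted p ranged from 7.06e-05 without the low-count filter to 0.154. Of 13 alternatives each for Ccr1, Ccr2 and Cxcr4, those fitted over all genes gave adjusted p from 0.158 to 0.385, from 0.107 to 0.361 and from 0.557 to 0.753, and the others could not pass a threshold (values without a test, or a permutation test bounded at 0.1); limma-voom and the filter at a mean CPM of 1 gave no value for them, as they were filtered out. Thinning to the smallest library moved the log2 ratio of Ccr2 to 2.17. Whether the replicate numbers pair the libraries is not known. Deviations of same-numbered libraries correlated at 0.0996, 0.0147 and 0.0211, and those of differently numbered libraries at -0.077 to 0.0524. Not every library correlated best with its own number, but deviations centred on 3 libraries per group cannot exclude a pairing. With the replicate block, 750 genes were called in place of 439, no call of the 6 genes changed, and Cxcl16 had an adjusted p of 0.0326. For Ccr1, Ccr2 and Cxcr4 the block was run without the filter, a choice made after seeing the data, with adjusted p of 0.174, 0.107 and 0.662. The number of called genes was 1154 without the low-count filter and 187 to 1061 over the fits that left out a library, lowest without GFAP-IL6 replicate 3 and highest without WT replicate 1; 282 were called without GFAP-IL6 replicate 2. The cause was not tested. With an absolute log2 fold change over 1 it was 211, 48 with the prior of DESeq2 and 129 to 239 over the fits that left out a library. Counts of 2 to 14 per library, with 3 libraries per group, limit what can be said of the receptors.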

Other observations

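Of the listed chemokine genes below the low-count filter, Ccl8, Ccl5, Ccl2, Ccr9 and Ccl3 had groups that did not overlap, and they are named after their values were seen. The lists held 15 other typical receptors (2 tested) and 5 atypical receptors (4 tested). They also held 11 other CXC ligands (0 tested) and 20 CC, XC and CX3C ligands (7 tested). Whether more of the untested genes were separated than the shares below was not tested. Of all genes below the filter with 10 to 29 counts, a window also set then, 8.47% were separated as higher and 4.55% as lower. Ccr9 falls in the window of 30 to 60 counts, where the shares were 8.30% and 5.38%. Ccl8, a monocyte attractant, was at 0 in each WT library and had 12, 7 and 5 counts in the GFAP-IL6 libraries, with an adjusted p of 4.23e-05 by edgeR with no filter. Ccl5, a ligand of Ccr1, was counted 0, 2 and 0 times in the WT libraries and 3, 5 and 5 times in the GFAP-IL6 libraries. Without the filter edgeR gave it an adjusted p of 0.0476. That fit is the more liberal, as it called 3.54% of genes as higher and 1.56% as lower. With the filter the shares were 2.65% and 0.209%, and neither Ccl8 nor Ccl5 was tested there. Ccl2, a ligand of Ccr2, was counted 0, 3 and 0 times in the WT libraries and 5, 3 and 2 times in the GFAP-IL6 libraries, with an adjusted p of 0.205 in that fit. Ccr9 had 9, 9 and 7 counts in the WT libraries and 9 in each GFAP-IL6 library, which are 0.586 ± 0.177 and 0.999 ± 0.191 CPM (SD, n = 3 each) with an adjusted p of 0.440. Ccl3, a ligand of Ccr1, lay in the other direction, with 3, 5 and 2 counts in the WT libraries, 1, 0 and 1 in the GFAP-IL6 libraries and an adjusted p of 0.535.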
